A study of Homo sapiens with 25 samples.

Results

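The genes described here encode the proteins of the cytoplasmic ribosome. Members were chosen by symbol: protein-coding genes named RPL or RPS followed by digits and an optional suffix, together with RPLP0, RPLP1, RPLP2 and RPSA, without the RPS6K kinases and without the mitochondrial ribosomal proteins. This gave 87 of the 20056 protein-coding genes of the GRCh38.p14 table. Of these, 85 lie on chromosomes 1 to 22 and X and were analysed, 53 encoding proteins of the large subunit (RPL) and 32 of the small subunit (RPS). The other members lie on the Y chromosome and were not analysed here. Read-through genes with compound symbols and RPS19BP1, which is not a ribosomal protein, were left out by the symbol rule.

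Chromatin immunoprecipitation followed by sequencing (ChIP-seq) had been carried out on 4 established human lines derived from lung adenocarcinomas: HCC364, NCI-H441, NCI-H358 and NCI-H2087. The lines were untreated and grown in RPMI medium with fetal bovine serum, so no group differs by a treatment, genotype change or time. In each line NKX2-1, H3K27ac and H3K4me1 were profiled, and NCI-H2087 was also profiled for FOXA1, FOXA2, SOX2, c-Jun, EP300, RNA polymerase II, H3K4me3 and CTCF. A single library was made per antibody in a line, so no line has a replicate and the spread is given over the 4 lines. Where 4 values stand in a row without names, they are those of NCI-H2087, then NCI-H358, then NCI-H441, then HCC364.

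Ribosomal protein genes are transcribed at a high and coordinated rate in growing cells, because every ribosome needs each protein in about the same amount. Their promoters are known for a short pyrimidine tract that begins at the transcription start, the terminal oligopyrimidine tract, through which translation of their mRNAs is tied to mTOR signalling, and for frequent sites of general activators such as the ETS factor GABP, YY1 and SP1. NKX2-1 is the homeodomain factor of the lung and thyroid lineages, FOXA1 and FOXA2 are forkhead factors of endodermal tissues, SOX2 is a stem and airway cell factor, c-Jun is a subunit of AP-1, EP300 is a histone acetyltransferase, and CTCF is an insulator protein. H3K27ac marks active promoters and enhancers, H3K4me3 marks active promoters, and H3K4me1 is typical of enhancers and of the flanks of promoters.

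The 20 peak lists held between 7406 peaks (EP300) and 121789 peaks (HCC364 H3K4me1), and the read depth of the libraries is unknown here. A peak was assigned to a gene when it overlapped the 1 kb on either side of either annotated gene end. Peak height is the fold over local background that the authors' caller wrote for the summit, and because folds of different lists are not on a common scale, each peak is also given by its rank percentile within its own list (100 is the strongest). All 6 epithelial keratin and adhesion genes tested (such as EPCAM and KRT8) carried H3K27ac at an end in every line. The lung genes NKX2-1, SFTPB and NAPSA did so in every line except SFTPB in NCI-H358. Of 9 marker genes of other cell types 4 or 5 carried it in each line, where 56.0% to 58.5% of all other protein-coding genes did. PTPRC, PECAM1, CDH5 and HBB, which mark leukocytes, endothelium and erythroid cells, carried it in no line. The T cell gene CD3E, the B cell gene CD79A and the astrocyte gene GFAP each carried it in 3 of the 4 lines. The remaining marker genes, COL1A1 and ACTA2, carried it in every line. Another protein-coding gene end lay within 1 kb for 32 of the 85 members (37.6%), as for 38.6% of the other genes acetylated in NCI-H2087, and such pairs cannot be told apart at their shared end. No member shared an end with another member.

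The promoter letters of 8 members are shown because the results below turn on these genes: RPS3A, RPL24, RPL35A and RPS18 had some of the strongest NKX2-1 peaks, RPLP0 (the stalk protein) and RPS14 had CTCF and strong RNA polymerase II signal, RPS6 lacked NKX2-1 in NCI-H2087 and NCI-H358, and RPL10L had no active mark. Each line gives 120 bases before and 20 bases after the annotated start, 5′ to 3′ on the strand of the gene, from RefSeq on GRCh38.p14. Capitals mark the pyrimidine run at the annotated start and matches to the ETS (CCGGAAG), YY1 (AANATGGC) and NKX2-1 (CTCAAG) letters on either strand, and to the letters TATAAA of the TATA box on the gene's strand only.
RPS3A (chr4:151099508-151099647, plus strand): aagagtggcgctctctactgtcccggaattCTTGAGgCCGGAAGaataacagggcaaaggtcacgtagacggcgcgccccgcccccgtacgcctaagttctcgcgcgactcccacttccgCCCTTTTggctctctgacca
RPL24 (chr3:101686699-101686838, minus strand): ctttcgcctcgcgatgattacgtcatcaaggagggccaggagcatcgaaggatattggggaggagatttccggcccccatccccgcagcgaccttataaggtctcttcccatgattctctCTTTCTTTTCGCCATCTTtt
RPL35A (chr3:197950070-197950209, plus strand): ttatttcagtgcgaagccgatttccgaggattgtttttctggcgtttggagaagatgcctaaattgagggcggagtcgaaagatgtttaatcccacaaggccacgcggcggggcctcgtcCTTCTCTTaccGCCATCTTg
RPS18 (chr6:33271955-33272094, plus strand): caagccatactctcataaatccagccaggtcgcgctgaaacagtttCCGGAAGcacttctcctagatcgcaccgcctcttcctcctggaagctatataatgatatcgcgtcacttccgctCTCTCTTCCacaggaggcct
RPLP0 (chr12:120201092-120201231, minus strand): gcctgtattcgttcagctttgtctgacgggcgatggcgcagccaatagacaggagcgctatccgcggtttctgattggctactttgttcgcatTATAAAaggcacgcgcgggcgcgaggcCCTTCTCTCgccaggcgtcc
RPS14 (chr5:150449720-150449859, minus strand): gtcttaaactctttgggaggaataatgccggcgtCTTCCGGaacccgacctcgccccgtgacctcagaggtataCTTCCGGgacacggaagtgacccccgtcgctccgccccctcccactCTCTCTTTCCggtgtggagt
RPS6 (chr9:19380217-19380356, minus strand): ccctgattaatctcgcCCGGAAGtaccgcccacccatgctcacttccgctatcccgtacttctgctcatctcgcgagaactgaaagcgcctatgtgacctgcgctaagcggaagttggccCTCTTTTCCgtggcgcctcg
RPL10L (chr14:46651762-46651901, minus strand): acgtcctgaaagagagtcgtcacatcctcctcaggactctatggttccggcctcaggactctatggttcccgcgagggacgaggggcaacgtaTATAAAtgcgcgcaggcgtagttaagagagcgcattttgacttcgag
The first 7 share a run of pyrimidines that opens with C at the start. In RPL24 the run is followed directly by the YY1 letters, read on the opposite strand (GCCATCTT), and in RPL35A the same letters follow a few bases later. RPS14 holds the ETS letters at 2 places, and RPS18, RPS3A and RPS6 at 1. RPL10L, an intronless copy of RPL10 known from testis, has TATAAA and no pyrimidine run.

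A promoter was found for 68 of the 85 members (window of 250 bases before to 50 after the annotated start, 300 bases in all), beside 15744 other protein-coding genes. For peaks and summit distances the start is the outermost annotated gene end. The letters follow the start of the promoter sequence, which for RPL6, RPL26L1 and RPL27 lies inside the gene. For some members, RPL6 and RPS27A among them, the start used may not be the one most used in the cell. A terminal oligopyrimidine start, defined as a C at the annotated start followed by at least 4 pyrimidines, was present in 43 of 68 (63.2%, exact 95% binomial interval 50.7% to 74.6%) against 4.34% of the other promoters. A run of 7 pyrimidines within 15 bases of the start was present in 53 (77.9%) against 19.2%. The ETS letters occurred in 23 (33.8%, 22.8% to 46.3%) against 14.0%, and the YY1 letters in 11 (16.2%, 8.36% to 27.1%) against 7.88%. These are the 4 patterns for which the interval of the members lay above the share of the other promoters. For YY1 this depended on the window and the comparison genes. From 100 bases before to 50 after the start, 7 promoters (10.3%, 4.24% to 20.1%) held its letters against 5.77%, and the share over the full window was 10.8% at other promoters acetylated in NCI-H2087. The ETS letters were in 17 (25.0%, 15.3% to 37.0%) against 10.6% in the shorter window, and in 20.9% of other acetylated promoters over the full one.

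The remaining motifs were not more frequent at ribosomal protein genes. The SP1 letters GGGCGG were in 37 (54.4%, 41.9% to 66.5%) against 58.3% of all other and 70.1% of other acetylated promoters, TATAAA in 4 (5.88%) against 6.96%, the E-box CACGTG in 4 (5.88%) against 8.84%, and the NRF1 palindrome in 1 (1.47%) against 1.77%. The letters of the factors profiled were also near the share of other promoters. CAAGTG, a core of NKX2-1 sites, was in 4 (5.88%) against 10.0%, and CTCAAG, the other core, in 7 (10.3%) against 11.2%. The forkhead letters TGTTTNC were in 9 (13.2%) against 14.8%, the AP-1 letters TGANTCA in 2 (2.94%) against 5.72%, and a CTCF core in 8 (11.8%) against 12.9%. Motifs other than TATAAA and the pyrimidine patterns were searched on both strands. A match to the ETS letters can lie within a match to the CTCF core, and the pyrimidine patterns overlap each other. The median GC content was 59.7%, below the 65.0% of other acetylated promoters, and the median ratio of observed to expected CpG was 0.902 against 0.842.

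H3K27ac was present at nearly every ribosomal protein gene in every line. It was found at an end of 83 of 85 members in NCI-H2087 (97.6%, against 57.9% of the other protein-coding genes), 83 in NCI-H358 (97.6% against 56.7%), 84 in NCI-H441 (98.8% against 56.0%) and 83 in HCC364 (97.6% against 58.5%). The members were 40.7 ± 1.62 percentage points higher (SD over 4 lines). All 4 lines carried the mark at 82 members, against 49.2% of the other genes. An exact sign-flip permutation test over 4 lines cannot give a p below 0.125, so no test is given for this or the other differences over lines.

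The exceptions were paralogs. RPL10L (chr14:46651010-46651781) had no H3K27ac in any line and no peak in any list except a CTCF peak at rank 15.7 (fold 7.49). RPL26L1 (chr5:172954094-172969771), a close copy of RPL26, was acetylated in NCI-H441 (fold 20.2) and HCC364 (fold 25.6). It had no peak within 1 kb of an end in NCI-H2087 or NCI-H358. Its promoter sequence (chr5:172958609-172958748) lies inside the gene, outside the 1 kb windows. RPL3L (chr16:1943974-1954689), a copy of RPL3 known from muscle, was acetylated in NCI-H2087 (10.7), NCI-H358 (9.61) and NCI-H441 (21.5) and had no peak in HCC364. An end of MSRB1 lay within 1 kb of an end of RPL3L, and whether these peaks lay at that end is not given here. RNA polymerase II peaks covered 0.00% of RPL3L in NCI-H2087. The other second copies, RPL39L, RPL22L1, RPL7L1, RPL36AL and RPS27L, were acetylated in all 4 lines. These exceptions depended on the window: with 5 kb windows, 84 of the 85 members were acetylated in all 4 lines.

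The acetylated peaks were strong and wide for their lists. The median rank of the strongest H3K27ac peak of a member was 93.1, 92.9, 94.2 and 90.6 in the 4 lines, against 79.9, 80.4, 80.9 and 84.6 for other genes with a peak. The median widths were 2824, 2872, 2821 and 3054 bp against 1768, 1920, 1751 and 2172 bp. HCC364 had the smallest gap in rank, and NCI-H2087 and NCI-H441 the largest. RPL19, a large-subunit protein of the bridges between the subunits, was among the strongest in NCI-H2087, NCI-H441 and HCC364, with folds of 63.9, 82.3 and 66.5. In NCI-H358 its fold was 54.6, and other members were higher, such as RPL23A (116) and RPL13 (73.1).

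**Figure D1:**
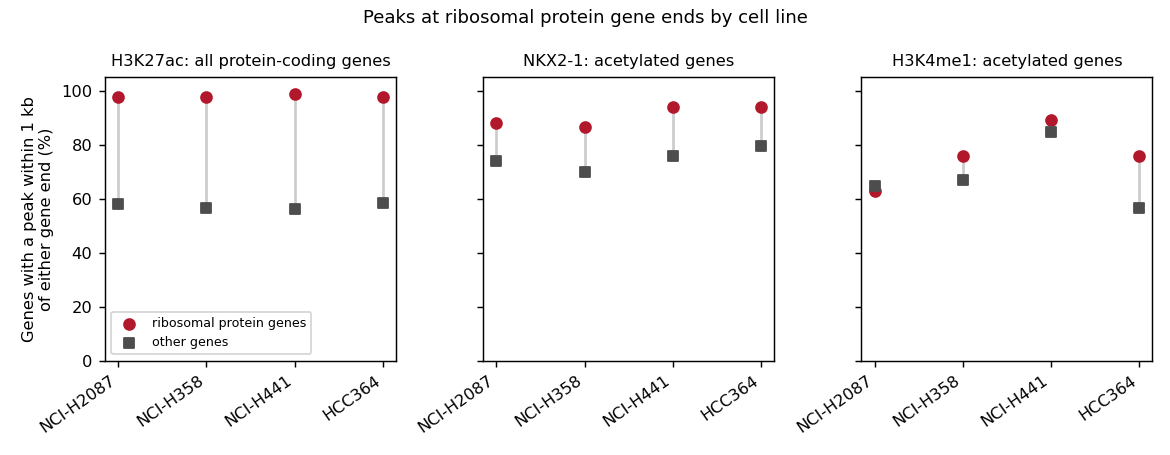
Share of genes (%) with a peak within 1 kb of either gene end in each of the 4 lines, for ribosomal protein genes (circles) and other genes (squares), 1 library per point. H3K27ac is shown over all protein-coding genes and NKX2-1 and H3K4me1 over genes acetylated in the same line; the circles lie above the squares in every line except for H3K4me1 in NCI-H2087.

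NKX2-1 peaks were found at most acetylated ribosomal protein genes and more often than at other acetylated genes in each line. The counts were 73 of 83 in NCI-H2087 (88.0% against 73.8%), 72 of 83 in NCI-H358 (86.7% against 69.8%), 79 of 84 in NCI-H441 (94.0% against 75.6%) and 78 of 83 in HCC364 (94.0% against 79.6%). The difference was 16.0 ± 2.10 percentage points (SD, 4 lines, range 14.1 to 18.5), larger than the spread between lines. The plot of shares by line shows both groups moving together, with the lowest values in NCI-H358. Small-subunit genes ranged from 26 of 32 in NCI-H358 to 32 of 32 in HCC364, whereas large-subunit genes stayed between 45 and 48 of 53.

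The size of this difference depended on the genes used for comparison. RNA polymerase II rank, measured in NCI-H2087, moved with it: 76 acetylated members had a polymerase peak in the top 5% of its list, and among other genes of that class NKX2-1 was also more frequent. Within the class the members and the other genes stood at 88.2% and 92.2% in NCI-H2087. They stood at 86.8% and 82.8% in NCI-H358, at 96.1% and 89.0% in NCI-H441, and at 96.1% and 91.5% in HCC364. The mean difference there was 2.93 points, and its sign in NCI-H2087 was opposite to that in the other lines. The part of polymerase level in the difference was not tested further. With only the 20000 strongest peaks of each list the difference was 8.89 points.

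NKX2-1 was present in all 4 lines at 63 members, all of them among the 82 acetylated throughout (76.8%, against 59.7% of the other genes acetylated in 4 lines). A further 11 members had it in 3 lines, 8 in 2 lines, 1 in 1 line and 2 in none. With the 20000 strongest peaks per list, 7 of the 81 members acetylated throughout had it in all 4 lines (8.64%), against 8.21% of the other genes, so the excess of members was not seen there. With each of the other 5 windows and thresholds tried, the members' share was between 69.5% and 85.7% and that of the other genes between 50.2% and 75.7%. The member peaks were of middle height in their lists. Median ranks of the strongest NKX2-1 peak were 59.6, 65.1, 59.1 and 66.6 in the 4 lines, against 48.7, 53.7, 50.6 and 58.9 for other acetylated genes. Median folds were 9.70, 9.72, 10.7 and 12.2 against 8.17, 8.13, 9.26 and 10.5. In the top 5% of the NKX2-1 lists there was no member in NCI-H2087 and 1 (1.18%) in each other line. Among other acetylated genes 1.59%, 2.60%, 2.55% and 2.84% were in it, above the members' share in each line. In the top 10% the members stood at 2.35%, 7.06%, 4.71% and 10.6%, against 3.99%, 6.09%, 5.58% and 7.02%. There the members were higher in NCI-H358 and HCC364 and lower in NCI-H2087 and NCI-H441.

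By mean rank over the 4 lines the strongest NKX2-1 peaks of the family were at RPS3A (chr4:151099628-151104642), which encodes a small-subunit protein near the mRNA exit. Its folds were 21.0, 38.1, 57.1 and 43.2, with a mean rank of 96.1, so NCI-H2087 was the lowest and NCI-H441 the highest. In NCI-H2087 RPL27 (23.4) and RPS18 (23.1) were higher. The summits lay at −302, −315, −306 and −301 bp from the annotated start of RPS3A (negative is upstream), outside the stretch of sequence printed above. FOXA1 (fold 5.84) and FOXA2 (3.59) also had peaks there in NCI-H2087, with summits at −310 and −252 bp.

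Next came RPL23A, a protein at the mouth of the peptide exit tunnel, with folds of 18.5, 22.0, 22.9 and 28.4. Its strongest summits spanned 4552 bp over the lines, so these folds are not all of the same site. An end of TLCD1 also lay within 1 kb of an end of RPL23A. RPL27, another large-subunit protein, had 23.4, 20.1, 20.7 and 25.9. RPL35A, a large-subunit protein mutated in Diamond-Blackfan anaemia, had 19.4, 13.5, 29.1 and 34.5. The lines did not fall in a common order over these genes. HCC364 had the highest fold in each, but folds of different lists are not on a common scale. By rank NCI-H358 was highest at RPL23A (86.2, 93.4, 89.1 and 92.1) and at RPL27 (91.6, 91.9, 86.4 and 90.5). HCC364 was highest by rank at RPL35A (87.4, 80.8, 93.9 and 94.8). RPL24 had 20.7, 17.5, 21.0 and 27.1, RPS18, a protein of the small-subunit head, 23.1, 23.1, 27.7 and 14.3, and RPS7 20.1, 19.1, 19.9 and 19.9. By fold RPS7 was thus nearly level over the lines, and RPS18 was lowest in HCC364. RPL19 had 15.8, 13.7, 15.2 and 34.5, and RPS15A had 16.5, 17.7, 14.9 and 18.7. All of these named members are genes of the ordinary ribosome and none is a tissue-restricted paralog.

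Other members had NKX2-1 in some of the lines, mostly as low peaks. RPL6 was the member with NKX2-1 in 1 line, a peak of fold 4.54 in NCI-H441, although its H3K27ac folds were 35.1, 32.1, 37.1 and 17.2. RPS6, the small-subunit protein phosphorylated by the S6 kinases, had no NKX2-1 peak in NCI-H2087 or NCI-H358 and folds of 5.71 in NCI-H441 and 10.3 in HCC364, with summits at −69 and −72 bp. RPS4X had the same pattern with 7.27 and 8.49, and RPL14 with 3.89 and 7.48. RPL10A, in contrast, had 9.77 in NCI-H358 and 13.1 in NCI-H441 and no peak in NCI-H2087 or HCC364. RPS21 had 5.56 in NCI-H358 and 3.73 in HCC364, and RPL35 5.89 and 6.03 in those lines. A missing peak in 1 library has no replicate check.

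Members with known roles outside the core of translation varied. RPL5, RPL11 and RPL23, which can bind the p53 regulator MDM2, had NKX2-1 in all 4 lines, with folds of 8.63, 11.2, 9.08 and 13.7 for RPL5, 11.6, 11.2, 14.9 and 11.6 for RPL11, and 10.9, 5.29, 19.3 and 20.1 for RPL23. RPL11 was the most even of them and RPL23 varied the most. RPS19, the gene most often mutated in Diamond-Blackfan anaemia, had 8.77, 8.41, 13.9 and 18.1. RPS14, lost in the 5q- syndrome, had 7.93, 7.47, 9.19 and 8.50, and RPS27A, a ubiquitin fusion gene, had 13.2, 11.8, 12.9 and 18.1. Of the stalk proteins, which recruit elongation factors, RPLP0 was bound throughout (12.2, 12.4, 13.8 and 22.6). RPLP1 lacked a peak in NCI-H441 (5.64, 3.91 and 8.50 in the other lines), and RPLP2 had peaks in NCI-H2087 (5.47) and HCC364 (6.50). RPSA, also known as the laminin receptor, had none in NCI-H2087 and 4.63, 3.60 and 7.01 in the other lines.

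The paralogs again varied. RPL7L1 (15.7, 10.4, 17.3 and 21.8) and RPL22L1 (8.34, 8.74, 12.2 and 10.5) were bound in all lines, as were RPL36AL (7.20, 4.43, 5.71 and 5.74) and RPS27L (8.45, 4.51, 5.71 and 10.1). RPL39L, known from testis, had 5.76 in NCI-H2087, 4.76 in NCI-H358 and no peak in HCC364, but 30.8 in NCI-H441, one of the highest folds of any member in that line. RPL3L, which has an end near that of MSRB1, had a peak in NCI-H2087 (6.05) and NCI-H441 (11.3). RPL26L1 and RPL10L had none in any line.

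**Figure D2:**
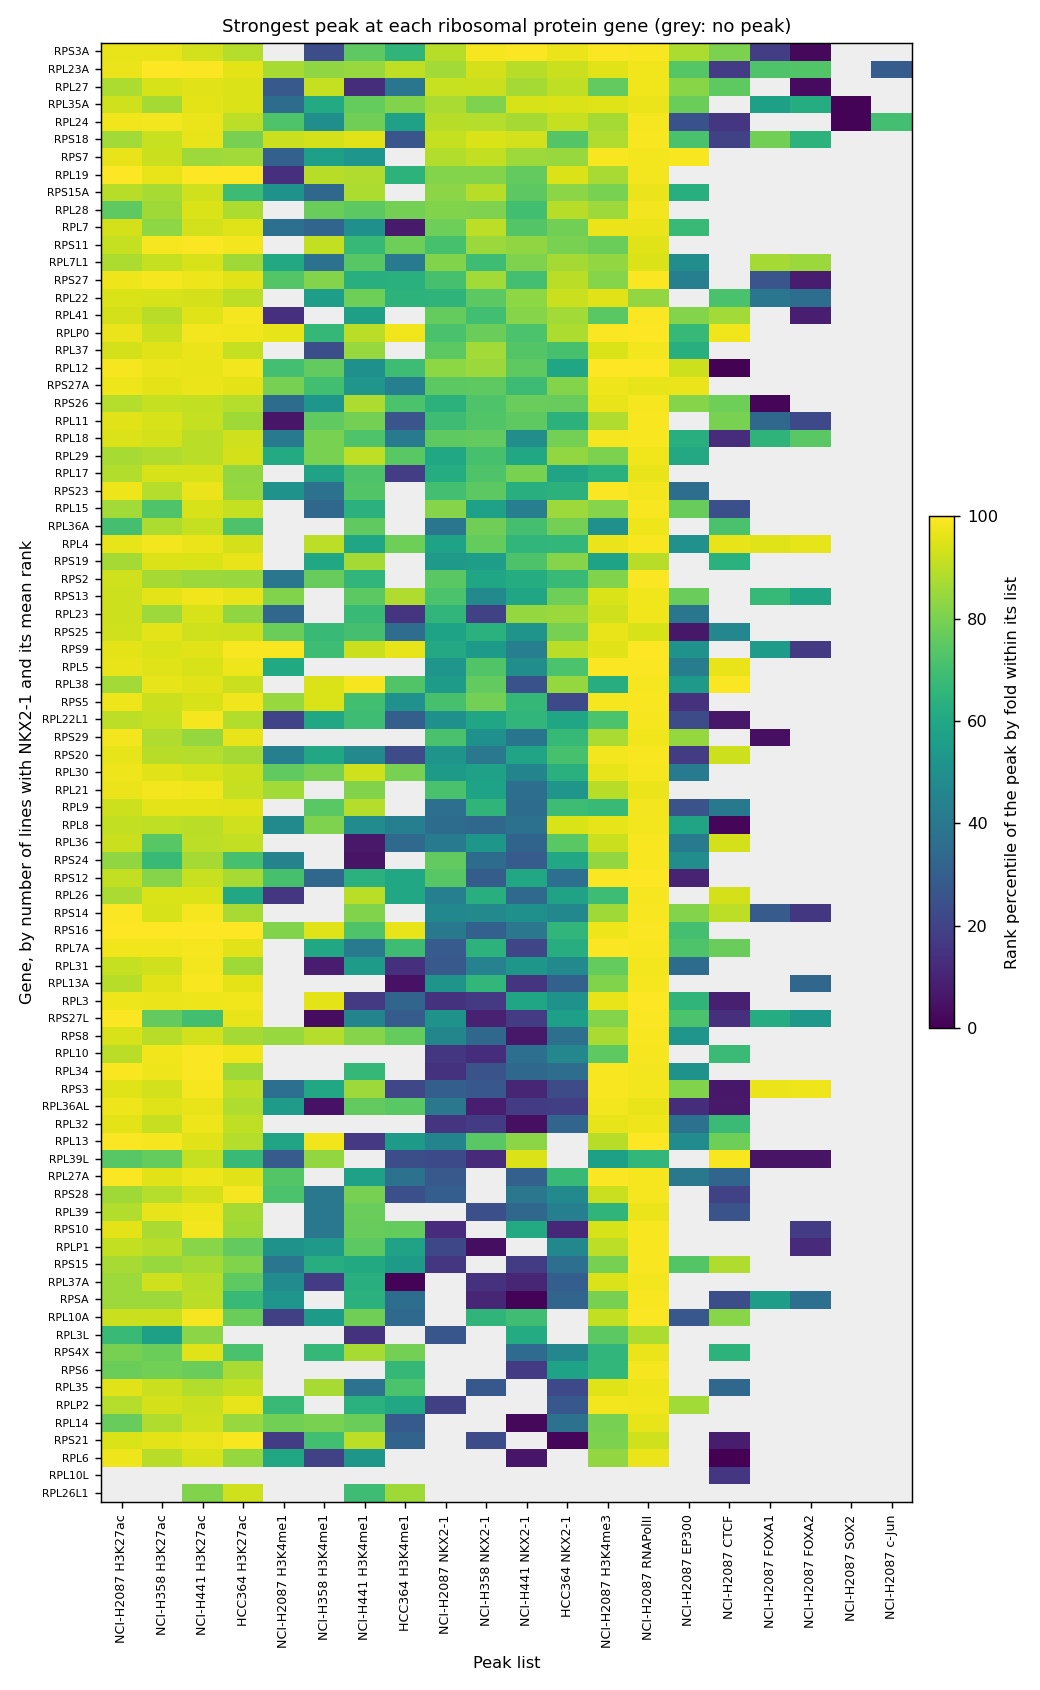
Rank percentile, within its list, of the strongest peak within 1 kb of either end of 83 ribosomal protein genes (rows) in each of the 20 peak lists (columns), on a linear colour scale from 0 to 100, with grey for no peak. Rows are ordered by the number of lines with NKX2-1 and its mean rank, from RPS3A (mean rank 96.1) down to RPL10L and RPL26L1, which had none; the H3K27ac and RNA polymerase II columns are high in nearly all rows and the SOX2 and c-Jun columns are filled in 2 rows each.

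Position was measured for members whose strand is known from the promoter table. NKX2-1 summits lay just upstream of the start, at medians of −124, −81.5, −97.5 and −89.0 bp in the 4 lines. The medians of other acetylated genes were also upstream, at −82.0, −89.0, −102 and −81.0 bp. Between 66.1% (NCI-H358) and 78.3% (NCI-H441) lay within 250 bases of the start, against 45.0% and 50.9% at other acetylated genes in those lines. For the 63 members bound in every line, the strongest summits of the 4 lines spanned a median of 77.0 bp, and 40 of them (63.5%) lay within 100 bp, against a median of 100 bp and 50.2% for other genes bound throughout. Of 46 members at least 4 kb long, 37 had NKX2-1 on the start side and 9 on the far side in NCI-H2087. The counts were 39 and 8 in NCI-H358, 43 and 13 in NCI-H441, and 41 and 9 in HCC364. As shares these were 80.4%, 84.8%, 93.5% and 89.1% on the start side, against 70.1%, 65.5%, 69.9% and 75.6% of other acetylated genes of that length. On the far side they were 19.6%, 17.4%, 28.3% and 19.6%, against 12.6%, 11.7%, 16.6% and 13.8%. The members were thus higher on both sides in each line. Beyond the 4 kb minimum the genes were not matched for length. Over all genes acetylated in NCI-H2087 the median length was 5035 bp for members and 28673 bp for others. The far end of a member is thus often nearer its own start, and the part of length was not tested. Of 56 members with an NKX2-1 peak at the start in NCI-H2087, 3 held CAAGTG and 7 held CTCAAG within the window, and of 12 without a peak 1 and 0 did. Among other acetylated genes with NKX2-1 at the start, 8.47% held CAAGTG and 11.6% CTCAAG.

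EP300 summits sat at the start itself, at a median of 16.0 bases into the gene, with 36 of 43 (83.7%) within 250 bases against 68.7% at other acetylated genes. RNA polymerase II summits were the most tightly placed, at a median of 36.0 bases into the gene with 60 of 66 (90.9%) within 250 bases against 65.2%. CTCF summits lay at a median of −125 bp. H3K4me3 peaked at a median of 432 bases and H3K27ac at 230 bases into the gene in NCI-H2087. At other acetylated genes the medians were −62.0 bp for EP300, 41.0 bp for RNA polymerase II and −81.0 bp for CTCF. They were 289 bp for H3K4me3 and 186 bp for H3K27ac. H3K4me1 summits lay on both sides of the start: their quartiles were −1096 and 966 bp in NCI-H2087 (28 members), −1011 and 987 bp in NCI-H358 (30) and −484 and 1432 bp in NCI-H441 (54). In HCC364 they were −962 and −502 bp (27), with 85.2% upstream, where in NCI-H441 33.3% were. Other acetylated genes differed between these lines in the same direction, with 71.8% upstream in HCC364 and 45.9% in NCI-H441.

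**Figure D3:**
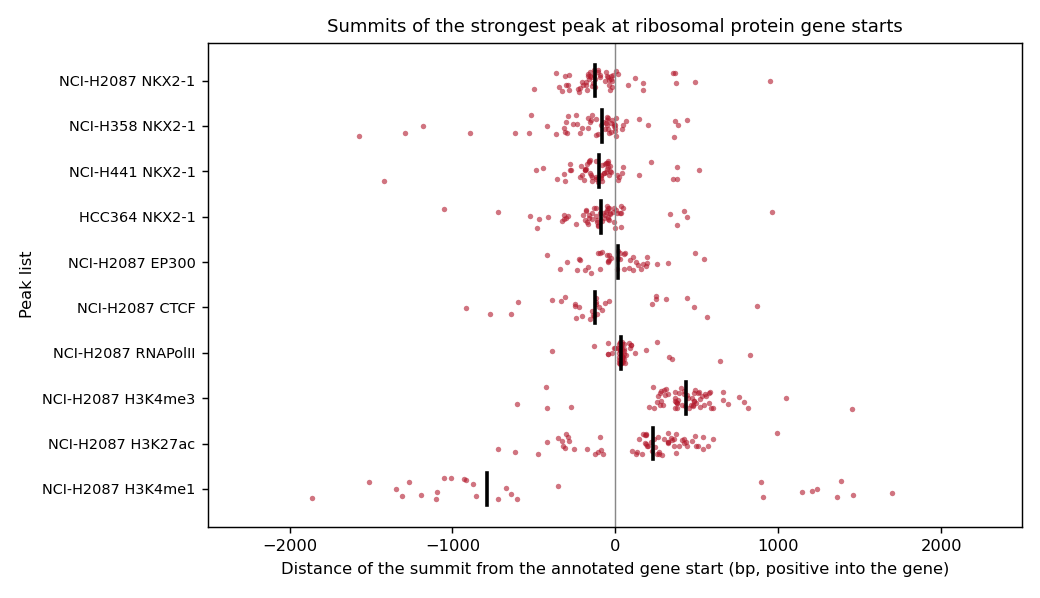
Distance (bp) of the summit of the strongest start-side peak from the annotated start, positive into the gene, for ribosomal protein genes of known strand in 10 of the lists; each point is 1 gene, displaced vertically at random for display, and the bar is the median. NKX2-1 points cluster just upstream of the start, RNA polymerase II points at a median of 36.0 bp, and no H3K4me1 point lies within 250 bp of the start.

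H3K4me1 separated the lines more than NKX2-1 did. Among acetylated members it was found at 52 of 83 in NCI-H2087 (62.7% against 64.8% of other acetylated genes), 63 of 83 in NCI-H358 (75.9% against 66.8%), 75 of 84 in NCI-H441 (89.3% against 84.5%) and 63 of 83 in HCC364 (75.9% against 56.7%). The difference was 7.73 ± 8.96 points (SD, 4 lines) and thus no larger than the spread between lines. It was 3.89 points without HCC364. Counting the start side only it was −9.04 points, with the 20000 strongest peaks −2.33 points, and with the summit required in the window 2.04 points. Of the 82 members acetylated throughout, 36 had the mark in all 4 lines (43.9% against 37.2% of other such genes) and 3 had it in none (3.66% against 7.40%). No start-side H3K4me1 summit lay within 250 bases of a start in any line, among 28, 30, 54 and 27 members with such a peak. For other acetylated genes between 2.56% and 3.33% did.

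In NCI-H2087 the factor that set the ribosomal protein genes apart most was EP300. It was found at 56 of the 83 acetylated members (67.5%, exact 95% interval 56.3% to 77.4%) against 22.7% of the 11514 other acetylated genes. All 83 also carried RNA polymerase II (100% against 89.6%) and H3K4me3 (100% against 95.8%). CTCF was at 47 (56.6%, 45.3% to 67.5%) against 48.0%, and the interval of the members includes the other genes' share. With windows of 5 kb CTCF stood at 71.4% and 71.3%, and with the 20000 strongest peaks at 28.9% and 15.3%. Intervals cover counting error only, and each antibody is 1 library.

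Unlike NKX2-1 in this line, FOXA1, FOXA2 and c-Jun were not more frequent at the members than at other acetylated genes. FOXA1 was found at 20 (24.1%, 15.4% to 34.7%) against 33.3%, and FOXA2 at 23 (27.7%, 18.4% to 38.6%) against 35.1%, both intervals including the other genes' share. The gaps were smaller when the summit had to lie in the window, at −4.71 points for FOXA1 and −3.38 for FOXA2, and FOXA1 was −3.76 with the 20000 strongest peaks. c-Jun was at 2 members, RPL23A and RPL24 (2.41%, 0.293% to 8.43%), against 9.98%, which lies above the interval of the members. SOX2 was at 2, RPL24 and RPL35A (2.41%), against 2.01%, with folds of 3.19 and 3.35 at ranks of 0.810 and 1.06, close to the bottom of its list. Against genes with a polymerase peak in the top 5%, the FOXA gaps were wider: FOXA1 was at 22.4% of 76 members and 43.9% of 1364 other genes, and FOXA2 at 26.3% and 45.2%. In that class EP300 stood at 71.1% and 47.3%, a gap of 23.8 points where it was 44.8 over all acetylated genes, c-Jun at 2.63% and 15.0%, SOX2 at 2.63% and 3.23%, and CTCF at 55.3% and 51.2%. With EP300 peaks of −log10 q of at least 10 the EP300 gap was 17.5 points.

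**Figure D4:**
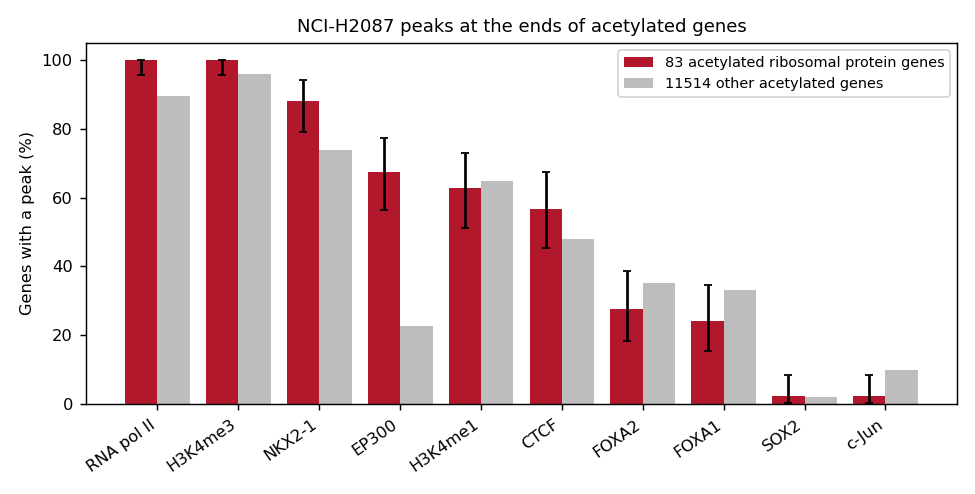
Share (%) of the 83 acetylated ribosomal protein genes (dark bars) and of the 11514 other acetylated genes (grey bars) with a peak of each antibody within 1 kb of either end in NCI-H2087; error bars are exact 95% binomial intervals for the members. EP300 shows the widest gap (67.5% against 22.7%), and the FOXA1, FOXA2 and c-Jun bars of the members are below those of the other genes.

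NKX2-1 and EP300 with neither FOXA factor was the most frequent set at these genes, although most members did not have it. It was found at 37 of 83 members (44.6%) against 9.78% of other acetylated genes. Among genes with a polymerase peak in the top 5% it was found at 36 of 76 members (47.4%) against 19.8%, and in the lower polymerase class at 1 of 7 members (14.3%) against 8.43%. Of the 56 members with EP300, 55 had NKX2-1 (98.2%), as had 95.1% of other acetylated genes with EP300. Of the 27 without EP300, 18 had NKX2-1 (66.7%), against 67.6%. Members and other genes thus stood close to each other both with and without EP300. At 38 of the 56 (67.9%) the EP300 summit lay within 200 bp of an NKX2-1 summit, against 66.1%, and at 14 (25.0%) within 200 bp of a CTCF summit, against 14.5%.

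Counted over NKX2-1, FOXA1, FOXA2, SOX2, c-Jun and EP300, 40 of the 83 members (48.2%) had 2 factors, against 19.2% of other acetylated genes, 8 had none (9.64% against 20.6%) and no member had all 6. RPL23A and RPL35A had 5, and 13 members had 4. RPL23A combined NKX2-1 (18.5), FOXA1 (15.4), FOXA2 (15.4), EP300 (7.15) and c-Jun (7.61). Whether these peaks lay at the same end of RPL23A is not given here, and it has an end near that of TLCD1. RPL35A combined NKX2-1 (19.4), FOXA1 (10.6), FOXA2 (11.3), EP300 (7.44) and a SOX2 peak of 3.35, and the NKX2-1, FOXA1 and FOXA2 summits lay at −293, −305 and −295 bp. RPS18 was alike without SOX2: FOXA1 (18.8) and FOXA2 (12.2) summits lay at −142 and −161 bp, beside the NKX2-1 summit at −95 bp. FOXA1 was at 9 large-subunit and 11 small-subunit genes. None of the 14 members with FOXA1 at a start in the promoter table held TGTTTNC, and 9 of the 54 without it did. Among other acetylated genes with FOXA1 at the start 18.3% held it.

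EP300 was strongest at RPS7 (fold 15.9), RPS27A (11.9), RPL12 (9.53), a protein at the base of the stalk, and RPS3A (8.63). The 56 member peaks were not higher than others, with a median fold of 6.17 against 6.13. The ETS letters were in 15 of the 43 members with EP300 at a start and in 8 of the 25 without, and the YY1 letters in 7 and 4. Among other acetylated genes with EP300 at the start, 29.1% held the ETS letters and 17.4% the YY1 letters. CTCF peaks, where present, were higher than at other acetylated genes (median fold 39.7 against 22.3, median rank 66.4 against 48.7). High CTCF peaks were at RPL38 (122, rank 99.5), RPL39L (111, rank 99.0), RPLP0 (101, rank 98.0), RPL5 (92.6), RPL4 (92.3), RPL36 (81.2) and RPL26 (80.9). RPL38 and RPLP0 thus combined top CTCF peaks with NKX2-1 in all 4 lines. The CTCF core letters were in 5 of 32 members with CTCF at a start and 3 of 36 without, and in 19.2% of other acetylated genes with CTCF at the start.

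RNA polymerase II was where ribosomal protein genes stood highest of all lists. The median rank of their strongest peak was 98.5 against 79.2, with a median fold of 64.6 against 16.5. Of the 85 members, 76 had a peak in the top 5% of the list (11.8% of other acetylated genes did), and 24 (28.2%) in the top 1% (2.36% of other acetylated genes). The highest were RPS12 (178), RPL12 (174), RPLP0 (170), RPS9 (168), RPL3 (152) and RPL13 (138), proteins of both subunits. RPL39L was lowest, with a fold of 10.4 (rank 66.4).

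The polymerase peaks ran over the whole of most members. Their median width was 7513 bp against 1273 bp, and 62 of 83 acetylated members (74.7%) lay inside a single peak, against 2.94% of other acetylated genes. Ribosomal protein genes are short, with a median length of 5035 bp against 28673 bp. Among other acetylated genes of at most 10 kb 12.7% lay inside a single peak. Among genes of at most 10 kb with a polymerase peak in the top 5%, the shares were 59 of 69 members (85.5%) and 48.8% of 400 other genes. The widest peak was at RPL27A (chr11:8682792-8689872), 21502 bp. Of 46 members at least 4 kb long, 37 (80.4%) had polymerase on the far side, against 18.6% of other acetylated genes. EP300 was on the far side of 1 (2.17%), against 1.53% of other acetylated genes. These far-side shares were not matched for length beyond the 4 kb minimum.

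**Figure D5:**
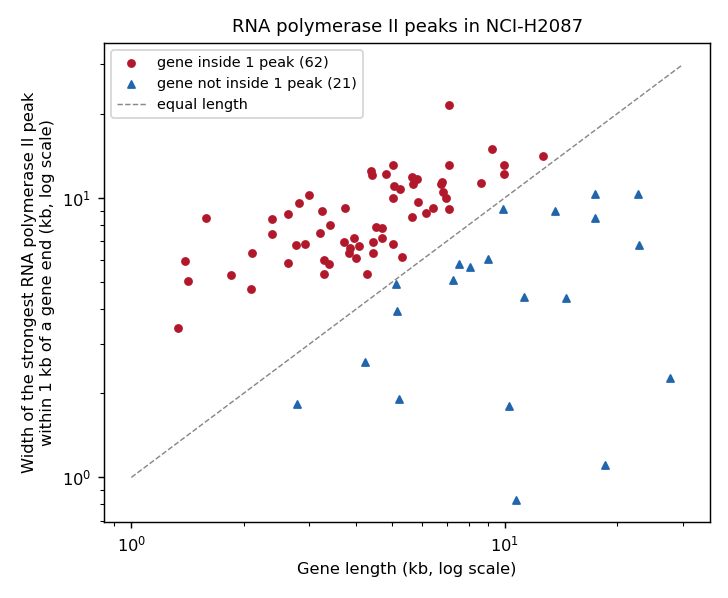
Width (kb) of the strongest RNA polymerase II peak against gene length (kb) for the 83 acetylated ribosomal protein genes in NCI-H2087, both on log axes; circles are the 62 genes that lie inside 1 peak, triangles the other 21, and the dashed line marks equal length. Most points lie above the line, and the triangles are mostly at the longer genes.

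The histone marks did not extend in the same way. H3K27ac and H3K4me3 covered a median of 40.0% and 39.8% of a member in NCI-H2087, against 20.2% and 25.7% of other acetylated genes of at most 10 kb. The median H3K4me3 width was 2905 bp against 2386 bp, at a median rank of 89.9 against 77.2. Within the top polymerase class the widths of members and other genes were close, at 2850 and 2875 bp for H3K27ac and 2933 and 3038 bp for H3K4me3. The polymerase widths there remained apart, at 7933 and 3747 bp. The widest H3K4me3 peaks were at RPL23A (6048 bp), RPL7 (5309 bp) and RPL36AL (4699 bp) and the narrowest at RPL29 (1494 bp), RPL39L (1534 bp) and RPL38 (1545 bp). RPL23A, RPL7 and RPL36AL each have another gene end within 1 kb (TLCD1, RDH10 and MGAT2), and the narrowest members named have none. The widest peaks may thus include signal of the neighbouring gene, which was not tested.

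Related gene lists differed from the ribosomal protein genes in different ways. Of 17 acetylated translation factors and partners, many of which also have terminal oligopyrimidine mRNAs, 15 (88.2%) had NKX2-1 in NCI-H2087, 10 (58.8%) EP300 and 11 (64.7%) FOXA1, and their median polymerase width was 9686 bp. Of 17 acetylated ribosome biogenesis genes, 13 (76.5%) had NKX2-1, 8 (47.1%) EP300 and 3 (17.6%) FOXA1, with a polymerase width of 1961 bp. Of 77 mitochondrial ribosomal protein genes, 62 (80.5%) had NKX2-1, 27 (35.1%) EP300 and 23 (29.9%) FOXA1, with a polymerase width of 1225 bp. H3K4me1 was at 68 (88.3%) of these 77, against 62.7% of the cytoplasmic members. NKX2-1 in all 4 lines was found at 14 of the 18 translation genes, 10 of the 18 biogenesis genes and 51 of the 77 mitochondrial genes, beside 63 of the 85 members.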

How the data were processed

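ChIP-seq peak lists of 20 libraries from 4 cell lines were used, and the 5 input libraries were not analysed here. Samples were grouped by the line and antibody in the sample titles. The submitters' processing notes name MACS2 (2.1.1, 2.2.7.1), bedtools, Bowtie2 2.2.9, SAMtools 1.9 and Trimmomatic 0.36, with the build GRCh38; their roles and parameters are not given in the sources used here. The authors' lists, called per library, give for each peak the fold at the summit over local background (a linear ratio), a −log10 q (lowest 3.00 to 3.14 in the deposited lists) and the summit's distance from the peak start. Whether a peak is called depends on depth, antibody and threshold, so the lack of one does not show that the protein was absent.

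Peaks off chromosomes 1 to 22 and X (0.0610% to 0.502% of a list) were left out. Peaks overlapping 1 kb around either gene end by at least 1 bp were counted with Python 3.11.15 and pandas 2.3.3. The gene table is RefSeq's for GRCh38.p14 and has no strand; strand came from RefSeq promoter sequences, found for 68 of 85 members. For shares the 95% interval is the exact Clopper-Pearson one and reflects counting error alone. The longer NRF1 and CTCF letters are given by name. No test is given: an exact sign-flip permutation over 4 lines cannot go below 0.125, and in NCI-H2087 each antibody is 1 library. The assignment was tested on simulated data.

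The members, lists and alternatives were chosen with earlier results of these data known. Named were members lacking H3K27ac, the 10 highest by mean NKX2-1 rank, those with NKX2-1 in 1 line or none, those with the most of 6 factors, the 8 highest by CTCF rank, the 3 widest and 3 narrowest by H3K4me3, and fixed members with known roles and paralogs. The values of 2 members are not reported here, although they are in all counts. Members of the polymerase and EP300 rankings, those bound in 2 lines and RPL27A were named after their values were seen. Restricting genes to the top 5% by polymerase, or to those without a neighbouring gene end, was also added after seeing the data.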

Additional observations from a re-analysis of the deposited data

Results flagged for a closer look

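The share of ribosomal protein genes with H3K27ac was 98.8% in NCI-H441 and 97.6% in each other line, so NCI-H441 stood apart from 3 equal values by Dixon's criterion, which any difference meets when the other values are tied. The gap is 1 gene: RPL3L and RPL26L1 were both acetylated in NCI-H441, RPL26L1 without RPL3L in HCC364, and RPL3L without RPL26L1 in the remaining lines. RPL3L has an end near that of MSRB1, as stated above. With 5 kb windows the share was 98.8% in every line. The difference in H3K4me1 between members and other acetylated genes was −2.17 points in NCI-H2087, of the opposite sign to HCC364 (19.2), NCI-H358 (9.08) and NCI-H441 (4.77). This difference between lines was not tested.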

How the results depend on the processing

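Of 131 values recomputed under an alternative, 106 kept their sign and moved by less than the spread between lines or, for 1 library, the longer arm of the members' 95% interval (counts, by less than 1.5 times), 20 moved further and 5 changed sign. The NKX2-1 difference of 16.0 points was 21.1 with a 500 bp window, 8.49 with 5 kb, 8.89 with the 20000 strongest peaks, 18.3 with the summit in the window, 2.93 within the top polymerase class and 41.6 over all protein-coding genes. It ranged from 15.2 to 16.6 when each line was left out. The H3K4me1 difference of 7.73 was −2.33 with the 20000 strongest peaks, −9.04 on the start side, 29.0 over all protein-coding genes, 2.04 with the summit in the window and 3.89 to 11.0 with a line left out. The H3K27ac difference of 40.7 was 42.4 at 500 bp, 34.0 at 5 kb, 51.6 with the 20000 strongest peaks, 43.4 at −log10 q of at least 10 and 40.0 to 41.2 with a line left out. In NCI-H2087 the top polymerase class gave −21.5 for FOXA1, −18.9 for FOXA2, −0.594 for SOX2 and 23.8 for EP300. SOX2 (0.395) was also −3.68 at 5 kb and −1.62 at −log10 q of at least 10, and EP300 was 17.5 there. CTCF (8.62) was 0.0790 at 5 kb and 13.6 with the 20000 strongest peaks. Polymerase was 4.39 with the 20000 strongest peaks, where NKX2-1 in all 4 lines was at 7 members, 8.64% against 8.21% of other genes acetylated throughout. At 5 kb the mean NKX2-1 rank was 70.6 and that of H3K4me1 73.7. Apart from the fewer peaks or other comparison genes that define each setting, the cause was not tested. No paired analysis was possible because no replicate numbers join the libraries, 1 per line and antibody; the differences are already taken within each line. Depth is unknown, and the 7406 EP300 peaks limit what can be said of members without one.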

Other observations

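Ribosomal protein pseudogenes were examined after the data were seen. The table holds 1984 of them, most of them intronless copies without the promoter of the parent gene, and 1045 lie more than 5 kb from a protein-coding gene. Among these, 18 (1.72%) had RNA polymerase II, 13 (1.24%) H3K4me3 and 7 (0.670%) EP300 within 1 kb of an end in NCI-H2087. NKX2-1 was at 84 (8.04%), 85 (8.13%), 113 (10.8%) and 93 (8.90%) in the 4 lines, in the order used above, and H3K27ac at 49 (4.69%), 50 (4.78%), 53 (5.07%) and 41 (3.92%). No share for other regions away from genes is given here, so these counts cannot be read as high or low. Reads from near-identical copies may be assigned to either copy or dropped, and this was not tested.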
